A study of Mus musculus with 31 samples.

Results

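The genes described here encode subunits of oxidative phosphorylation, that is, of the 4 respiratory chain complexes and the ATP synthase of the inner mitochondrial membrane. They were taken by gene symbol, with no measured value: symbols that start with Nduf followed by a, b, c, s or v and a digit (complex I), Sdha to Sdhd (complex II), Uqcr (complex III), Cox4 to Cox8 (complex IV) and Atp5 (complex V). The reference gene table holds 105 such symbols, 84 of them had a probe on the array, and 83 passed the signal filter, among 30165 features tested. They divide into 37 genes of complex I, 4 of complex II, 8 of complex III, 17 of complex IV and 17 of complex V. Cox8c, a testis form, had a probe that did not pass the filter, and the other 21 symbols had no probe. The symbol alone sets the complex, so Ndufa4, now known to sit in complex IV, and Cox7a2l, an assembly factor of supercomplexes, stand where their names put them.

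RNA was measured on 31 one-colour Agilent arrays from the medial prefrontal cortex (mPFC, written mpFC in the labels) and the nucleus accumbens (NAc) of female mice, 12 weeks old by their sample labels, of the inbred strains C57BL/6J (C57) and DBA2/J (DBA). The labels name no transgene or altered allele. Repeated cross-fostering (RCF) gave whole litters to a new dam on each of postnatal days 1 to 4, ending with the adoptive mother number 4, who kept them until weaning at day 28. Control litters of both strains were lifted out and put back with their own mother on the same days. The 8 groups are thus control and RCF mice of each strain in each region, with 3 or 4 arrays each. Pairs of arrays that were nearly the same counted as 1 sample. This left 27 samples: for C57, 3 controls and 4 RCF mice in the mPFC with 2 and 4 in the NAc, and for DBA, 3 of each in the mPFC with 4 of each in the NAc. The design asks what strain, region and early cross-fostering do to gene expression.

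Complexes I and II pass electrons from NADH and succinate to ubiquinone, complex III hands them on to cytochrome c, and complex IV reduces oxygen with them. Complexes I, III and IV pump protons, and the ATP synthase uses the gradient to make ATP, on which neurons rely for ion pumping and synaptic transmission. Most of the subunits are encoded in the nucleus, and none of the symbols taken here is a gene of mitochondrial DNA. A few subunits of complex IV exist as paralogues whose use differs between tissues, such as the Cox6a, Cox7a and Cox8 pairs of liver and heart type. Binding motifs of NRF1, of ETS factors such as GABP (NRF2), of YY1 and of CREB are known from promoters of such genes.

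RefSeq promoters (GRCm38.p6), from 250 bases before to 50 after the start, were at hand for 68 of the 83 genes. They were searched on both strands for 5 fixed strings, none of which contains another. GCATGCGC, of the NRF1 type, was in 10 of 68 promoters (14.7%) against 3.05% of all 27025 promoters of the same length. CCGGAAG, of the ETS type, was in 17 (25.0%) against 9.93%. AAGATGGC, of the YY1 type, was in 10 (14.7%) against 3.19%, and TGACGTCA, of the CRE type, in 4 (5.88%) against 2.03%. CCCCGCCC, a GC box, was in 12 (17.6%) against 19.6%. At least 1 of the first 4 strings stood in 34 of the 68 promoters, against 16.4% of all. A match is a string of letters, not a bound site. The 4 promoters shown belong to genes named below as differing between strains and carry 1 type of match each, apart from the added GC box of Ndufa10. Capitals mark the matches, and each sequence runs 5′ to 3′ on the gene's strand.
Uqcrc1 (chr9:108936398-108936697, plus strand): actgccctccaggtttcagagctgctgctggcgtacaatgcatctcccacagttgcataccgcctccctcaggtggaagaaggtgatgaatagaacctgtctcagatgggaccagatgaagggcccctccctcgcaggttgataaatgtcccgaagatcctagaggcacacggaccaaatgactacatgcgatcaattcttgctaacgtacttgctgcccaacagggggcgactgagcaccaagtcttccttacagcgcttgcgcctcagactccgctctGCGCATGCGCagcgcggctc
Ndufa10 (chr1:92473709-92474008, minus strand): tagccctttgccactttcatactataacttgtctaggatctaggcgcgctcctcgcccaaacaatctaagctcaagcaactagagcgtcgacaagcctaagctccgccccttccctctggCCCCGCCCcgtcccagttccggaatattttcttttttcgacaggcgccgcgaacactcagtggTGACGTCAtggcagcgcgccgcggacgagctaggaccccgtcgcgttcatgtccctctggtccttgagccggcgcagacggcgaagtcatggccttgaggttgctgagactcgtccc
Ndufb8 (chr19:44555393-44555692, minus strand): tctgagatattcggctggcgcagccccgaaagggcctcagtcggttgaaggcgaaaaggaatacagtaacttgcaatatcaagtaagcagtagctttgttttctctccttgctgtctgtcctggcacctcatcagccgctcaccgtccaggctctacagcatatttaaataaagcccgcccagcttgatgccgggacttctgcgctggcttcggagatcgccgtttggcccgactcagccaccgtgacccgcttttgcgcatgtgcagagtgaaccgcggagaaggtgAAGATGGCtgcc
Ndufs8 (chr19:3912725-3913024, minus strand): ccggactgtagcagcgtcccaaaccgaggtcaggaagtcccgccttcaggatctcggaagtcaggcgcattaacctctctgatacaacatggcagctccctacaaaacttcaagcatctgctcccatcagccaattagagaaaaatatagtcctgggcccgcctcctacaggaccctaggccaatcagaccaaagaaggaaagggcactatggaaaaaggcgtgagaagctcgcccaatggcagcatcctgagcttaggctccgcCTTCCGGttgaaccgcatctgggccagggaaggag

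In Uqcrc1, a core subunit of complex III, the NRF1 string lies at 2 overlapping places and on opposite strands, after the start of the gene. In Ndufa10 the CRE string lies before the start, in Ndufb8 the YY1 string lies after it, and in Ndufs8 the ETS string lies after it on the opposite strand. These 3 genes encode complex I subunits.

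All values are log2 signals of a gene's brightest probe minus the array's 75th percentile, so 1 unit is a factor of 2, and a level is never set against that of another gene's probe. Of the 83 genes, 82 were well above background on all 31 arrays, Cox8b on 30, and none was saturated. "Called" means an adjusted p below 0.05 in limma, over all 30165 features. Of 19 calls on genes with other probes (single treatments and strain by region), all other probes had the same sign in 11. For strain by region it was 6 of 6. For strain it was 1 of 3 each in control and RCF mPFC and 0 of 1 each in control and RCF NAc. For region it was 1 of 3 in C57 RCF samples and 1 of 1 each in DBA control and RCF samples. For strain in the mPFC over both treatments, other probes of Ndufa5, Ndufb11, Ndufv3, Sdhb and Sdhc had the opposite sign. Those of Ndufb4, Uqcrh, Atp5k and Atp5l had the same sign, and those of Uqcr10 and Cox7c were divided. Whether a probe reads both strains alike was not tested. In bulk tissue, fewer cells of a type and less RNA per cell cannot be told apart, and the labels do not say which arrays stem from separate animals, so the p-values measure only the spread between these samples. By the labels at most 2 animals came from a litter. RCF was applied to whole litters and the litter of each sample is not given, so litter was not in the fit. Each scanner file was given the sample whose deposited column it matched (lowest correlation 0.9999936), which differed from the sample it was listed with for 29 of 31 arrays. On that reading each of the 4 slides held 1 strain and 1 region with both treatments, so slide cannot be told apart from strain or from region. Markers went against a label in 6 of 27 samples, called samples in doubt. DBA mPFC control 1 and DBA NAc control 4 had C57-type strain markers, the former with an Xist value of -5.87 as well. C57 mPFC control 3, C57 mPFC RCF 1, C57 NAc control 1+3 and C57 NAc RCF 1 had markers of the other region. They were kept, and results are also given without them.

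The mean RNA level of the 83 genes differed little between groups, and no protein was measured. The mean over the 83 genes was 5.09 ± 0.14 (SD, n = 3) in C57 mPFC control samples, 5.07 ± 0.19 (n = 4) in C57 mPFC RCF, and 4.91 ± 0.22 (n = 3) and 4.91 ± 0.15 (n = 3) in the DBA mPFC control and RCF groups. In the NAc it averaged 4.91 over the 2 C57 control samples and was 4.83 ± 0.12 (n = 4) in C57 RCF, 4.98 ± 0.15 (n = 4) in DBA control and 4.97 ± 0.19 (n = 4) in DBA RCF samples. The groups overlapped: the lowest sample, DBA mPFC control 1, was at 4.66 and the highest, C57 mPFC control 3, at 5.20. The genes varied together from sample to sample, with a median correlation of 0.80 between a gene and the mean of the others over the 27 samples, which share array normalization. Ndufa13, a complex I subunit also known as GRIM-19, followed the mean most closely (r = 0.97). Correlations were above 0.8 for 40 genes and below 0.5 for 21. The loosest were Ndufa4l2 (r = -0.30), a hypoxia-induced relative of Ndufa4, and several genes called between strains in both regions over both treatments. Among the latter were Cox7b2 (-0.09), Ndufa10 (-0.05), Cox6b2 (0.00) and Ndufs1 (0.01). The NAc call of Ndufs1 and the calls of Cox7b2 did not hold in all alternatives given below.

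**Figure D1:**
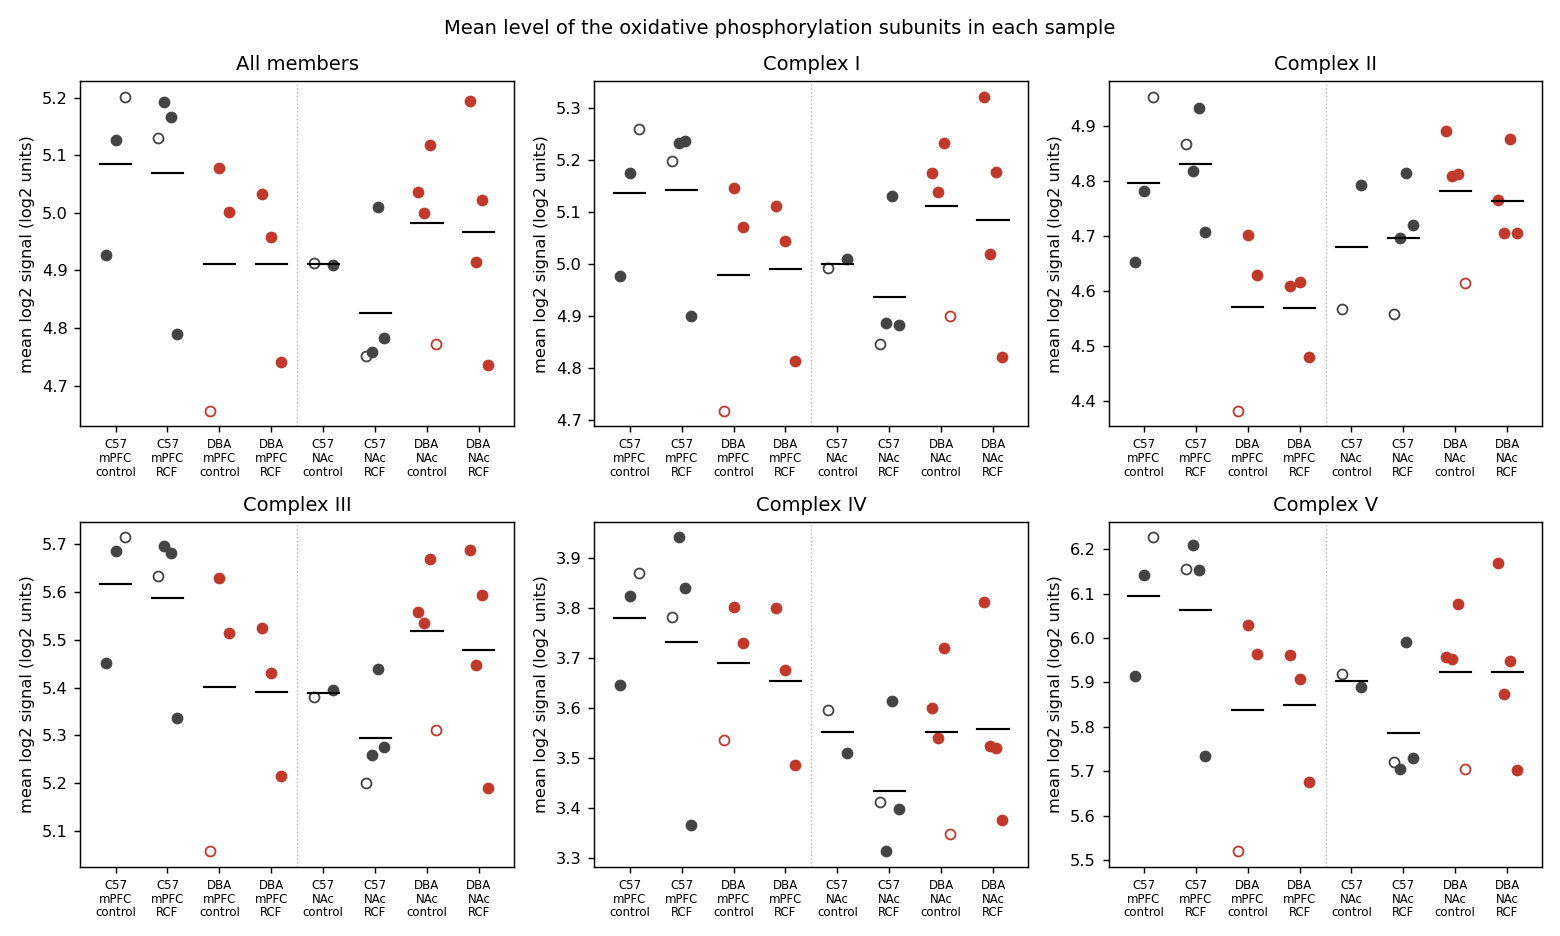
Mean log2 level relative to the array's 75th percentile over all members of each complex and over all 83 genes, 1 point per sample, grouped by strain, region and treatment. Open symbols are the 6 samples in doubt, black bars the group means. The groups overlap for all 83 genes, from 4.66 in DBA mPFC control 1 to 5.20 in C57 mPFC control 3.

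Between the strains, the 2 regions differed in direction. In the mPFC most of the 83 genes had lower values in DBA than in C57 mice, with 16 higher and 67 lower in control samples and a median difference of -0.25, against 0.08 over all features. Without the samples in doubt that median was -0.05. In control mPFC, 6 genes were called higher and 10 lower in DBA, where 24.4% of all features were called, 16% higher and 8.43% lower. In RCF mPFC, 7 were called higher and 15 lower (35% of all features, 21.7% higher and 13.3% lower), with a median of -0.23 against 0.08. In the NAc the balance was reversed: 4 higher and 2 lower in control samples (17.2% of features, 6.08% higher and 11.1% lower; median 0.05 against -0.03), and 5 higher and 2 lower in RCF samples (15.8%, 4.99% higher and 10.9% lower; median 0.13 against -0.02). The shares called, 16 and 22 of 83 in the mPFC and 6 and 7 of 83 in the NAc, were below the share of all features called with the main values. Array weights called 27 and 62 genes in control and RCF mPFC (43.3% and 59.5% of features) and 12 in RCF NAc (16.4%), and with the 31 arrays kept separate 17 were called in control NAc (32.4%). Quantile normalization gave 8 higher and 5 lower in control mPFC, 9 and 10 in RCF mPFC, 15 and 3 in control NAc and 8 and 4 in RCF NAc, and the mPFC medians moved to -0.02 and -0.06. Leaving out C57 mPFC RCF 4 raised the RCF mPFC count from 22 to 39, and without DBA mPFC RCF 4, C57 mPFC RCF 1 or DBA mPFC RCF 2 it was 11 to 14. The control mPFC count was 9 to 10 without C57 mPFC control 2 or 3 or DBA mPFC control 1 or 3. The control NAc count was 0 without C57 NAc control 1+3, 11 without DBA NAc control 4 and 2 to 3 without DBA NAc control 1, 2 or 3, and the RCF NAc count was 4 without C57 NAc RCF 3 or 4.

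Averaged over both treatments, a contrast added after the data had been seen, 10 genes were called higher and 33 lower in the DBA mPFC (48.2% of features, 29.1% higher and 19.1% lower; median -0.26 against 0.07, and -0.13 without the samples in doubt). In the NAc, 14 were called higher and 3 lower in DBA (31.9% of features, 12.8% higher and 19.1% lower; median 0.07 against -0.02). The lower calls spread over all complexes, with 15 in complex I, 2 in complex II, 4 in complex III, 5 in complex IV and 7 in complex V. Without the samples in doubt, 10 genes were called higher and 13 lower in the mPFC (43.9% of features), of which 9 and 12 were among the calls with all samples. In the NAc 12 and 2 were called (23.5%), of which 9 and 2 were among them. With quantile normalization the mPFC split was 16 higher and 17 lower. The genes named next were called with the main values, without the samples in doubt, with quantile normalization and with normexp background correction, unless an exception is given. In the mPFC these were 18 genes, 7 higher and 11 lower in DBA, and in the NAc 9 genes, 7 higher and 2 lower.

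Complex I, with 37 of the 83 genes, held 5 of the 10 genes called higher in the DBA mPFC and 7 of the 14 called higher in the DBA NAc. Ndufa10, an accessory subunit of the membrane arm, was at 2.75, 2.97 and 3.00 in the C57 control mPFC and at 3.29, 3.60 and 3.70 in the DBA control mPFC. In RCF samples it was at 2.75, 3.02, 2.86 and 2.84 in the C57 mPFC and at 3.71, 3.49 and 3.41 in the DBA mPFC. All DBA samples of the mPFC lay above all C57 samples of the mPFC, with differences of 0.62 ± 0.13 (SE; adjusted p = 0.00136) in controls and 0.67 (adjusted p = 0.000235) in RCF mice. In the NAc the control values were 2.81 and 2.97 in C57 against 3.55, 3.50, 3.55 and 3.28 in DBA, a difference of 0.59 (adjusted p = 0.00471). C57 RCF samples of the NAc, at 3.47, 3.28, 3.30 and 3.20, overlapped the DBA RCF samples, at 3.61, 3.48, 3.59 and 3.26. In RCF samples of the NAc the strain difference was 0.17 ± 0.11 and was not called (adjusted p = 0.319). Over both treatments the NAc difference was 0.38 ± 0.09 and the mPFC difference 0.65 ± 0.09.

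Ndufb8, another accessory subunit, whose protein is a common marker of assembled complex I, gave the largest NAc difference among genes called in all 4 fits. In the NAc it was at 5.80 and 5.80 in C57 control samples and 5.70, 5.71, 5.97 and 5.68 in C57 RCF samples. DBA NAc samples were at 7.00, 6.76, 6.72 and 5.67 (control) and 6.89, 6.49, 6.90 and 6.31 (RCF). All DBA samples of the NAc lay above the C57 samples except control 4, the sample with C57-type strain markers, which was lowest of all. The mPFC showed the same arrangement, with C57 samples from 5.59 to 5.96, DBA samples from 6.24 to 6.56, and DBA mPFC control 1, the other sample with C57-type markers, at 5.73. Over both treatments DBA was higher by 0.81 ± 0.17 in the NAc (adjusted p = 0.000776) and by 0.48 ± 0.17 in the mPFC (adjusted p = 0.0197), and without the samples in doubt by 0.94 and 0.62.

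Ndufs8, an iron-sulfur subunit, was higher in the DBA mPFC (0.46 ± 0.10) and NAc (0.38 ± 0.10). Ndufs1, the largest subunit, with several iron-sulfur clusters, was higher by 0.22 ± 0.06 in the mPFC, with C57 samples from 4.50 to 4.83 and DBA samples from 4.74 to 4.91.

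In the NAc alone, Ndufs7, an iron-sulfur subunit, and Ndufa6, an accessory subunit, completed the complex I genes called higher in DBA in all 4 fits (0.33 ± 0.12 and 0.40 ± 0.10). Lower in the DBA mPFC were 5 complex I genes: Ndufb2 by -0.70 ± 0.14 (C57 4.97 to 5.47, DBA 4.08 to 4.84), Ndufa4 by -0.65 ± 0.14 (5.87 to 6.21 against 4.82 to 5.62), Ndufb10, Ndufa8 and Ndufa9. The last of these, which helps hold the peripheral arm, differed by -0.39 ± 0.09. Samples of the strains did not overlap for Ndufb2, Ndufa4, Ndufa8 and Ndufa9, and touched for Ndufb10 (6.09 to 6.63 against 5.70 to 6.11). None of the 5 was called between strains in the NAc over both treatments.

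**Figure D2:**
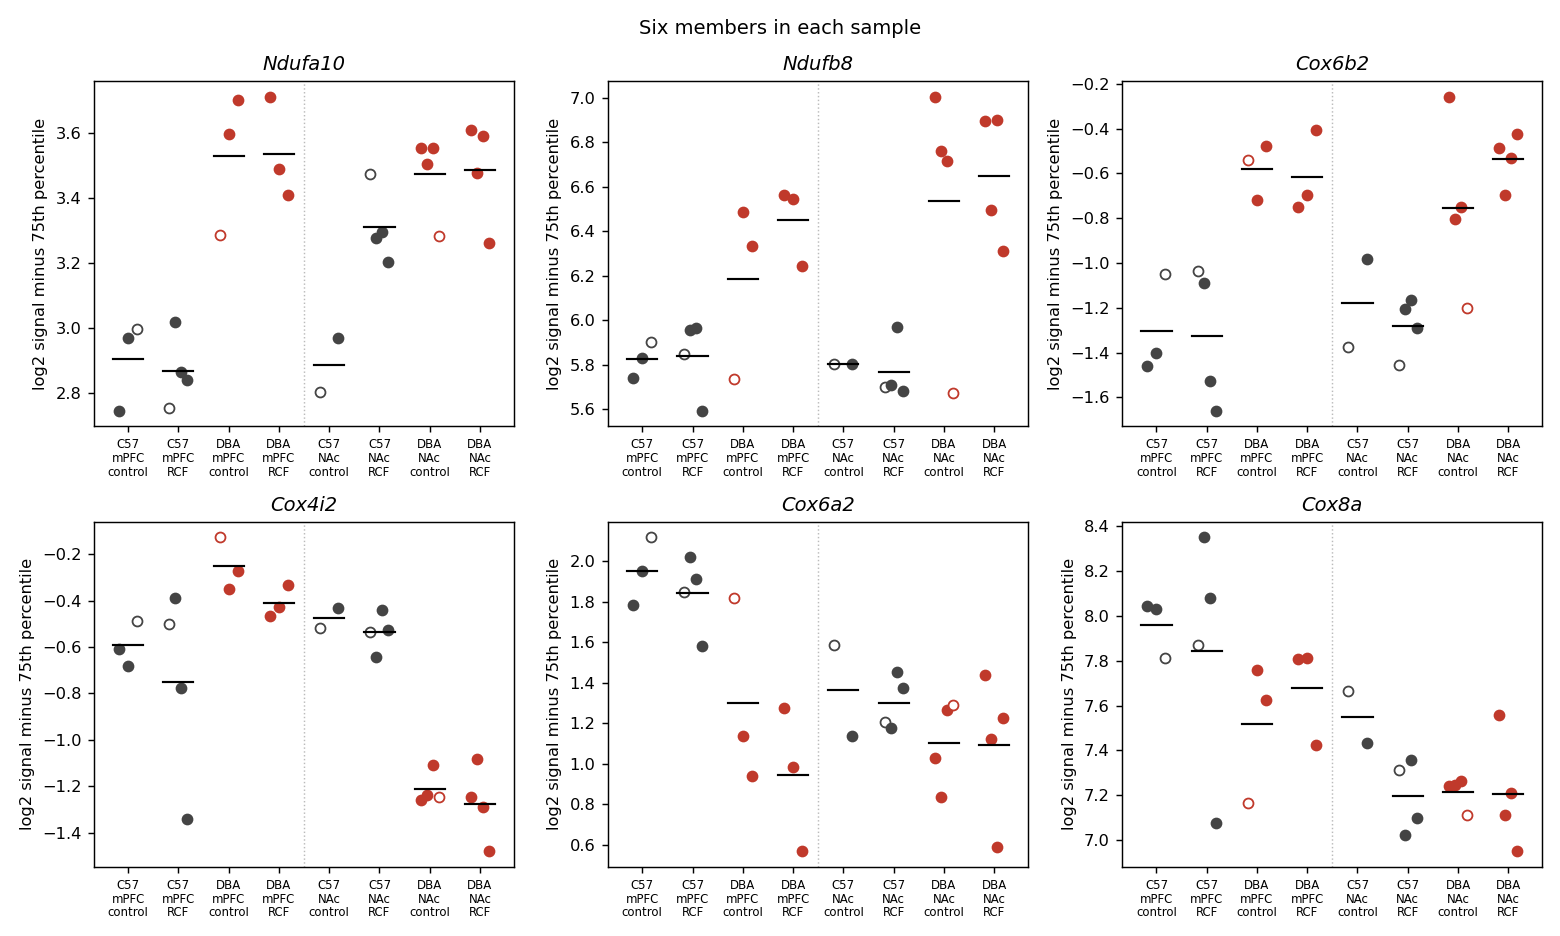
Log2 level relative to the array's 75th percentile of Ndufa10, Ndufb8, Cox6b2, Cox4i2, Cox6a2 and Cox8a, 1 point per sample, in the 8 groups (grey C57, red DBA, black bar group mean, open symbol sample in doubt). For Ndufb8 all DBA samples lie above the C57 samples except the pair in doubt at 5.73 (mPFC) and 5.67 (NAc); for Cox4i2 the DBA NAc samples, from -1.48 to -1.08, lie below the C57 NAc samples.

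In complex II, Sdhc, a membrane anchor with part of the ubiquinone site, ranged from 3.58 to 3.94 in the C57 mPFC and from 3.22 to 3.48 in the DBA mPFC. The brightest probe was lower in DBA by -0.41 ± 0.09 (adjusted p = 0.000863), but the gene's other probe was called in the opposite direction (0.33), so no strain direction is given for Sdhc. Sdha, the flavoprotein, and Sdhd were not called between strains. Sdhb, the iron-sulfur subunit, was called lower in the DBA mPFC over both treatments (-0.39 ± 0.12), but not without the samples in doubt (adjusted p = 0.126), and its other probe was near 0 with the opposite sign (0.10). None of the 8 complex III genes had a strain call over both treatments that held in all 4 fits. Uqcrc1 was called higher in DBA in the RCF NAc (0.41 ± 0.11, adjusted p = 0.0154), where C57 samples were at 3.41, 3.70, 3.30 and 3.33 and DBA samples at 3.85, 4.02, 3.96 and 3.56. The groups overlapped through C57 RCF 2 and DBA RCF 4. Uqcrfs1, the Rieske iron-sulfur protein, was called lower in the DBA mPFC in RCF samples (-0.42, adjusted p = 0.0482).

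Of the 15 measured genes on a list of tissue-type paralogues, most of them complex IV genes, 2 were called higher and 2 lower in the DBA control mPFC, and 2 and 3 in the RCF mPFC. In the NAc it was 0 and 1 in control and 2 and 1 in RCF samples. Of all features, 24.4% and 35% were called in control and RCF mPFC, and 17.2% and 15.8% in control and RCF NAc. The mPFC counts of the paralogues were near those shares. Cox6b2, known as the testis form of Cox6b, was at -1.46, -1.40 and -1.05 in C57 control mPFC and -0.54, -0.72 and -0.48 in DBA control mPFC. In the NAc, DBA samples ranged from -0.80 to -0.26 apart from control 4 in doubt at -1.20, and C57 samples from -1.45 to -0.98. Apart from that sample the strains did not overlap in either region, with differences over both treatments of 0.72 ± 0.14 in the mPFC (adjusted p = 0.000173) and 0.58 ± 0.14 in the NAc (adjusted p = 0.00221). Its somatic counterpart Cox6b1 was higher in the DBA NAc (0.35 ± 0.12, adjusted p = 0.0268). The samples with C57-type markers were at 3.20 (mPFC) and 3.35 (NAc) for Cox6b1, within the range of the C57 samples, whose highest was 3.47.

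Cox6a2, the muscle form of Cox6a that is also known from parvalbumin interneurons, was lower in the DBA mPFC. It was at 1.78, 1.95 and 2.12 in C57 control samples and at 1.82, 1.14 and 0.94 in DBA control samples, and at 1.85, 2.02, 1.91 and 1.58 against 1.28, 0.99 and 0.57 in RCF samples. All DBA samples lay below all C57 samples of the mPFC except DBA control 1, in doubt, at 1.82. The difference over both treatments was -0.78 ± 0.15 (adjusted p = 0.000263) in the mPFC. Of 8 parvalbumin interneuron markers, none was called between strains in the control mPFC, and Erbb4 alone, higher, in the RCF mPFC. The mean of the list ranged from 0.45 to 1.47 in C57 mPFC and from 0.31 to 1.00 in DBA mPFC samples, and their part in the Cox6a2 result was not tested. Of 7 muscle markers, 1 was called higher in DBA in control and 2 in RCF mPFC, and none lower.

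Cox4i2, a form of Cox4 induced at low oxygen and known from lung and from cells around vessels, was the gene called in opposite directions between strains in the 2 regions. In the NAc it was at -0.52 and -0.43 in C57 control and -0.54, -0.64, -0.44 and -0.53 in C57 RCF samples. In DBA it was at -1.26, -1.24, -1.11 and -1.25 (control) and -1.24, -1.08, -1.29 and -1.48 (RCF). The strains did not overlap, including the samples in doubt, and DBA was lower by -0.74 ± 0.18 in control (adjusted p = 0.00635) and -0.74 ± 0.14 in RCF samples (adjusted p = 0.00107). In the mPFC the DBA samples, from -0.47 to -0.13, were among the highest and overlapped C57 samples, from -1.34 to -0.39; the difference over both treatments, 0.34 ± 0.11 (adjusted p = 0.0159), was not called with normexp correction. Of 10 vessel markers, 1 was called lower in the DBA control NAc (Kdr) and 1 higher in the RCF NAc (Rgs5). In the control mPFC 2 were called higher in DBA (Pecam1 and Tek), where 24.4% of all features were called. In the RCF mPFC 2 were called higher and 2 lower (35% of all features). Between the regions of DBA mice Pecam1 alone was called, lower in the NAc, in controls and in RCF samples. The list's mean ranged from 0.51 to 0.98 in C57 NAc and from 0.56 to 1.11 in DBA NAc samples. Their part in the Cox4i2 result was not tested.

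Among the other complex IV genes, Cox5b, a zinc-binding subunit facing the matrix, was lower in the DBA mPFC, with samples from 5.44 to 5.83 against 6.10 to 6.52 in C57 and no overlap (-0.65 ± 0.10, adjusted p = 1.13e-05). Cox7a1, the heart form of Cox7a, was lower by -0.38 ± 0.14, with overlap. Cox7b2, a testis form, was higher in DBA in both regions (0.86 ± 0.19 and 0.73 ± 0.19), but not called with normexp correction. Cox7c gave calls in both regions from its brightest probe (-0.72 ± 0.11 and -0.52 ± 0.11), but of its 2 other probes 1 was called in the opposite direction (0.56 in the mPFC, 0.48 in the NAc), so no direction is given. The main Cox4 form, Cox4i1, was not called between strains with the main values (-0.06 ± 0.12 in the mPFC, 0.26 ± 0.12 in the NAc).

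In complex V, Atp5l, subunit g of the membrane part, was lower in the DBA mPFC (-0.62 ± 0.14, adjusted p = 0.000988), and its 4 other probes were all called lower too, by -1.20 to -0.65. C57 samples ranged from 6.31 to 6.96 and DBA samples from 5.63 to 6.40. In the NAc the difference was -0.02. Atp5d, the delta subunit, was higher in the DBA mPFC, with samples from 4.60 to 5.10 against 4.27 to 4.57 in C57 and no overlap (0.50 ± 0.10, adjusted p = 0.000266). In the NAc it was called higher in DBA in RCF samples (0.41 ± 0.12, adjusted p = 0.026). The catalytic subunits Atp5a1 and Atp5b were called lower in the DBA mPFC over both treatments (-0.36 ± 0.12 and -0.37 ± 0.12), but not without the samples in doubt (adjusted p = 0.174 and 0.144).

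The strain differences of the 2 regions rest on different samples. Over both treatments, 32 of 83 genes (38.6%) differed in the same direction in mPFC and NAc, against 56.4% of all features, while the correlation of the differences was 0.68 across the 83 genes and 0.31 across all features. Genes of 1 pathway are not independent, and each region's slides are shared by all its values. In both regions 11 genes were called, 10 of them in the same direction, among them Ndufa10, Ndufb8, Ndufs1, Ndufs8, Cox6b2, Cox7b2 and Cox8b higher and Cox5b lower in DBA, and Cox7c, whose probes disagreed. The exception was Cox4i2. The NAc calls of Ndufs1 and Cox5b were lost without the samples in doubt (adjusted p = 0.0667 and 0.0948) and with normexp correction. Those of Cox8b were lost in both regions under both alternatives. Of the 14 genes called between strains in the NAc without the samples in doubt, DBA NAc control 4 was nearer to the median of the C57 samples not in doubt for 12, against 51.6% of the features called there. DBA mPFC control 1 was nearer to C57 for 8 of 23, against 30.4%. Of the 7 genes called between the C57 regions without the samples in doubt, C57 mPFC control 3, C57 mPFC RCF 1 and C57 NAc RCF 1 were nearer to the other region for 0, against 48.7%, 60.4% and 65.8% of the features called there. C57 NAc control 1+3 was nearer to it for 3, against 73.6%.

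**Figure D3:**
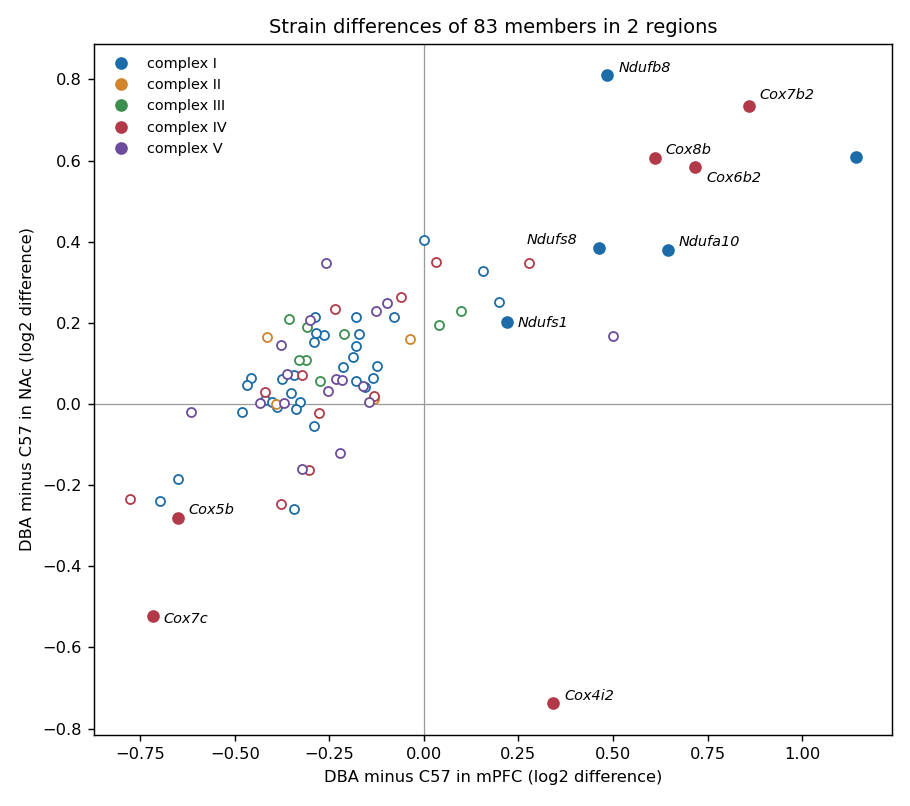
Strain difference (DBA minus C57, log2, averaged over treatments) in the mPFC on the x axis and in the NAc on the y axis, 1 point per gene, coloured by complex; filled points were called in both regions. Most points lie left of 0 on the x axis (67 of 83) and above 0 on the y axis (65 of 83), and Cox4i2 stands apart at 0.34 (mPFC) and -0.74 (NAc).

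Between the regions, most of the 83 genes had lower values in the NAc than in the mPFC of C57 mice, while in DBA mice most had higher values. The DBA direction rested on single samples: the control median, 0.10, was -0.03 without DBA mPFC control 1, and the RCF median, 0.07, was -0.02 without DBA mPFC RCF 4 and -0.01 without DBA NAc RCF 1. In C57 RCF samples 10 genes were higher and 73 lower in the NAc, with a median difference of -0.28 against -0.04 over all features, and 1 was called higher and 8 lower (7.7% of features, 2.96% higher and 4.73% lower). In C57 controls limma called 0 genes (0.0995% of features; 10 genes at an unadjusted p below 0.05, 11.8% of features), with a median of -0.15 against -0.06. In DBA mice 2 were called higher and 1 lower in controls (38.3%, 10.7% higher and 27.6% lower; median 0.10 against -0.13) and 2 and 2 in RCF samples (39%, 11.9% higher and 27.1% lower; median 0.07 against -0.14). Quantile normalization gave 4 higher and 7 lower in C57 RCF samples and moved the median of all features in DBA mice over both treatments from -0.13 to -0.02. Cortical markers separated the regions in DBA mice, with all 12 called lower in the NAc of both treatments, while in C57 mice none of 12 was called in controls and Tbr1 alone in RCF samples; their part in the result was not tested. In the C57 RCF comparison, leaving out C57 mPFC RCF 4 raised the count from 9 to 27, leaving out C57 mPFC RCF 3 brought it to 0, and without C57 mPFC RCF 1 or 2 or C57 NAc RCF 2, 3 or 4 it was 2 to 5. The DBA control count was 6 without DBA NAc control 4, and the DBA RCF count 2 without DBA mPFC RCF 1+3 or 2.

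**Figure D4:**
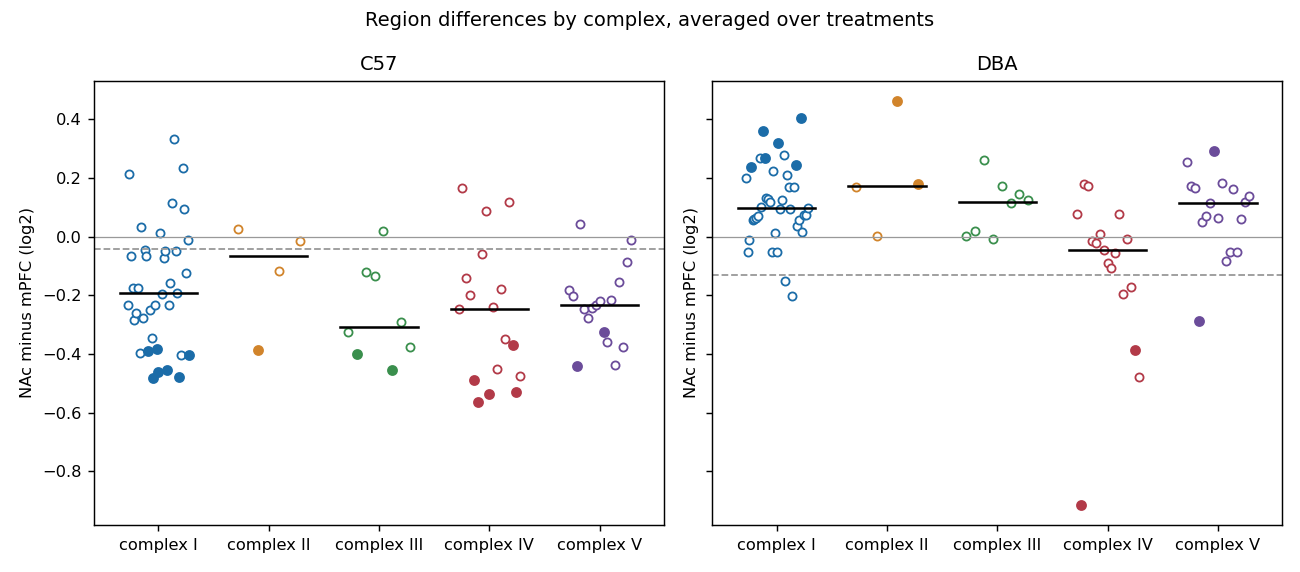
Difference between regions (NAc minus mPFC, log2, averaged over treatments) of each gene by complex, in C57 and in DBA mice. Filled points were called, black bars are complex medians and the dashed line is the median of all features. In C57 mice 70 of 83 points lie below 0.

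Over both treatments, 17 genes were called lower and none higher in the C57 NAc (10.1% of features, 3.74% higher and 6.32% lower; median -0.23 against -0.04), and 9 higher and 3 lower in the DBA NAc (56.6%, 19.4% higher and 37.1% lower; median 0.08 against -0.13). Without the samples in doubt 7 genes were called lower in C57 (25.5%), 6 of them among the 17, and the median was -0.16. In DBA 8 were called higher and 3 lower (56.7%), of which 5 and 3 were among the calls with all samples. With quantile normalization the C57 split was 3 higher and 10 lower. Cox8a, the ubiquitous form of the smallest complex IV subunit, was the gene called lower in the NAc of both strains in all 4 fits. It was at 8.04, 8.03 and 7.81 in C57 control and 7.87, 8.35, 8.08 and 7.08 in C57 RCF samples of the mPFC, and at 7.67, 7.44, 7.31, 7.02, 7.36 and 7.10 in the C57 NAc. In DBA mice it was at 7.17, 7.76, 7.62, 7.81, 7.81 and 7.42 in the mPFC and from 6.95 to 7.56 in the NAc. The regions overlapped in each strain, in C57 through mPFC RCF 4 and in DBA through mPFC control 1, RCF 4 and NAc RCF 1. The differences were -0.53 ± 0.16 in C57 (adjusted p = 0.0364) and -0.39 ± 0.15 in DBA (adjusted p = 0.0304), and the gene's other probe was also called lower in both.

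In C57 mice, the other genes called lower in the NAc in all 4 fits were Cox6a1, the ubiquitous counterpart of Cox6a2 (-0.49 ± 0.14), Ndufb9 (-0.45 ± 0.10; 6.00 to 6.44 in the mPFC against 5.65 to 5.95 in the NAc, with no overlap) and Ndufv3 (-0.40 ± 0.10), whose other probe had the opposite sign (0.19) and was not called. In DBA mice, Sdhc was higher in the NAc (0.46 ± 0.09, adjusted p = 0.000171), from 3.51 to 4.00 against 3.22 to 3.48 in the mPFC and with no overlap, and here the other probe was called in the same direction (0.40). Sdhd, its partner anchor (0.18 ± 0.07), and Ndufs7 (0.41 ± 0.12) were also higher in the DBA NAc. The largest DBA region difference was that of Cox4i2, lower in the NAc by -0.96 ± 0.15 in controls (adjusted p = 5.83e-05) and -0.86 ± 0.15 in RCF samples (adjusted p = 0.000201), with mPFC samples from -0.47 to -0.13 against -1.48 to -1.08. Ndufa10 was called higher in the C57 NAc in RCF samples (0.44 ± 0.11, adjusted p = 0.0164).

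The interaction of strain and region, over both treatments, was called for 19 genes, 18 with a more positive NAc minus mPFC difference in DBA than in C57 and Cox4i2 with the opposite sign (31.4% of features called, 9.89% positive and 21.5% negative; median 0.33 against -0.09). By complex the positive calls were 9 of 37 in complex I, 1 of 4 in complex II, 1 of 8 in complex III, 1 of 17 in complex IV and 6 of 17 in complex V, with medians of 0.33, 0.29, 0.40, 0.20 and 0.35. Examples are Atp5c1, the gamma subunit of the rotor (0.61), Uqcrfs1 (0.57), Atp5j, a part of the stalk (0.51) and Ndufv3 (0.50). Sdhc was at 0.58 ± 0.13 (adjusted p = 0.00205), but its other probe at 0.07 was not called. Cox4i2 had the largest value, -1.08 ± 0.16 (adjusted p = 3.4e-05). Among the vessel markers Tek (-0.90 ± 0.24) and Pecam1 (-0.67 ± 0.18) were called with its sign, 2 of 10. Markers of cell types moved in the same interaction: all 14 striatal markers had positive values (3 called, median 2.31), and all 12 cortical excitatory (3 called, median -2.0) and all 7 muscle markers (3 called) negative ones. Of the parvalbumin interneuron markers 3 of 8 were called positive, of the astrocyte markers 2 of 9 and of the oligodendrocyte markers 2 of 11. The 3 called from the parvalbumin list were Gad1, Gad2 and Tac1, and Tac1 was also among the 3 called striatal markers. The part of these markers in the result was not tested. Without the samples in doubt 3 genes were called, 2 positive and Cox4i2. Leaving out 1 sample at a time gave 6 (without C57 NAc control 1+3) to 35 (without C57 mPFC RCF 4), with 8 without C57 mPFC control 3 or DBA mPFC RCF 4, 12 without C57 mPFC control 2 and 30 without DBA NAc RCF 4, and quantile normalization gave 11 positive and 3 negative.

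With each array given the sample it matched, and near-identical arrays averaged, no difference between RCF and control mice passed the test for any of the 83 genes. In limma, 0 genes were called in the C57 mPFC (0% of features; 0 genes and 2.47% of features at an unadjusted p below 0.05). The same held for DBA mice, both for their mPFC (0%; 0 genes and 1.55%) and for their NAc (0%; 0 genes and 2.01%). In the C57 NAc, where 0.593% of features were called, 0 genes were called and 4 had an unadjusted p below 0.05, against 11.1% of features. The median differences were -0.02 in the C57 mPFC, -0.10 in the C57 NAc, -0.00 in the DBA mPFC and, in the NAc of DBA mice, -0.02, against -0.01, 0.01, -0.01 and 0.01 over all features. In the C57 NAc 21 genes had higher and 62 lower values after RCF, with medians of -0.08, 0.04, -0.15, -0.11 and -0.12 for complexes I to V. These counts depend on which array belongs to which sample: with the files taken as listed, 20 genes were called in the C57 mPFC, 25 in the C57 NAc, and in DBA mice 18 in the mPFC with 6 in the NAc. The C57 NAc comparison rests on 2 control samples, 1 of them in doubt, and without control 2+4 1 gene was called. With the 31 arrays kept separate 2 genes were called there. Striatal and cortical markers moved with it without being called, all 14 striatal markers having higher and all 12 cortical markers lower values after RCF, and their part in the result was not tested.

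The smallest p in the C57 NAc belonged to Ndufa10, at 2.81 and 2.97 in controls and from 3.20 to 3.47 after RCF, without overlap (0.42 ± 0.13, 95% interval 0.15 to 0.70, adjusted p = 0.181). Atp5d followed with -0.42 ± 0.15 (interval -0.74 to -0.11, adjusted p = 0.262) and Uqcrc1 with -0.38 ± 0.14 (interval -0.67 to -0.09, adjusted p = 0.28). The corresponding Ndufa10 differences were -0.04 in the C57 mPFC and 0.01 in both DBA regions. In the C57 mPFC low p-values belonged to Cox7b2 (0.51 ± 0.26), Ndufs1 (0.15 ± 0.09) and Cox8b (-0.48 ± 0.30), in the DBA mPFC to Cox6a2 (-0.36 ± 0.22), Ndufa4l2 (-0.28 ± 0.18) and Cox7c (-0.25 ± 0.16), and in the DBA NAc to Atp5g1 (0.23 ± 0.15) and Ndufc2 (-0.17 ± 0.12), all with an adjusted p of 1.00. The interactions of treatment with strain or region called 0 genes in limma (0% of features in each). At an unadjusted p below 0.05 they held 0 genes (strain, mPFC), 3 (strain, NAc), 1 (region, C57) and 0 (region, DBA), against 1.47%, 7.66%, 4.54% and 1.08% of features.

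**Figure D5:**
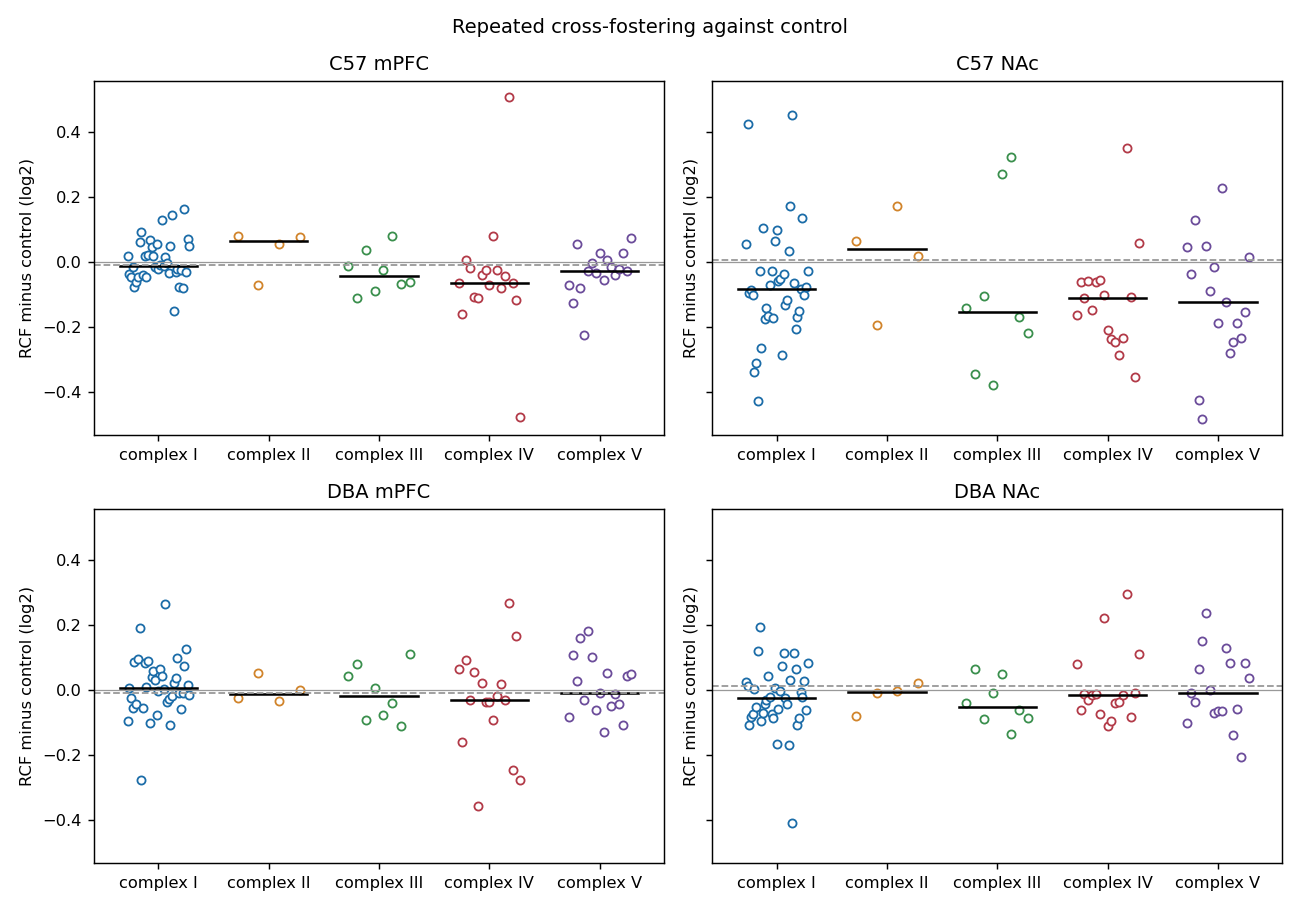
Difference between RCF and control (log2) of each gene by complex in the 4 strain and region combinations; black bars are complex medians, the dashed line is the median of all features, and filled points would mark called genes. No point is filled, and in the C57 NAc 62 of 83 points lie below 0.

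Genes that serve the complexes were read from fixed lists. Of 44 assembly factors, 1 was called higher and 4 lower in the DBA control mPFC (16% and 8.43% of all features), and 5 and 5 in the control NAc (6.08% and 11.1%). Cox17, a copper chaperone of complex IV, was lower in DBA by -3.66 ± 0.18 in the control mPFC (adjusted p = 1.21e-11) and -3.38 ± 0.19 in the control NAc (adjusted p = 1.15e-10). Whether its probe reads both strains alike was not tested. Lyrm7, an assembly factor of complex III, was lower in the DBA control NAc by -1.90 ± 0.51 (adjusted p = 0.014). Of 17 genes of electron carriers and quinone synthesis, 3 were called higher and 4 lower in the DBA control mPFC, where Coq9 was at 0.78 ± 0.17 and Coq7 at -0.44 ± 0.10. Of 18 genes of the tricarboxylic acid cycle and pyruvate entry, 4 were higher and 1 lower there. Pdhb, of the pyruvate dehydrogenase complex, was the lower one (-1.08 ± 0.18), and Pdha1, of the same enzyme, was among the higher ones (0.72 ± 0.17).

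Of 19 regulators of mitochondrial biogenesis, 1 was higher and 4 lower in the DBA control mPFC (16% and 8.43% of all features). In the RCF mPFC it was 1 and 7 (21.7% and 13.3%). Ppargc1b, a coactivator of these programmes, was lower by -1.16 ± 0.20 and -1.19 ± 0.19. In DBA mice it was higher in the NAc than in the mPFC (0.78 ± 0.19 in controls, 1.09 ± 0.19 in RCF samples), as was Esrrg, an oestrogen-related receptor (0.84 ± 0.28 and 0.86 ± 0.28). Of 77 mitochondrial ribosomal proteins, 9 were higher and 8 lower in the DBA control mPFC (16% and 8.43% of all features). In the control NAc 12 were higher and 3 lower (6.08% and 11.1%). In the strain by region interaction, where 9.89% of all features were called positive and 21.5% negative, the lists held 7 positive and 0 negative calls of 44 assembly factors, 3 and 0 of 8 nucleotide and phosphate carriers, 5 and 0 of 19 biogenesis regulators and 15 and 2 of 77 ribosomal proteins. Slc25a5 (0.89 ± 0.15), which exchanges ADP for ATP, and Slc25a3 (0.74 ± 0.16), which imports phosphate, led the nucleotide and phosphate carriers. Of 17 genes of electron carriers and quinone synthesis, 4 were positive and 1 negative. Of 18 genes of the tricarboxylic acid cycle it was also 4 and 1, with Pdha1 negative (-0.70 ± 0.16). Among the 83 genes, most calls of this interaction were lost without the samples in doubt. Of 17 glycolysis genes, 1 was positive and 2 negative, among them Eno1 (-0.63 ± 0.13) and Pfkl (-1.05 ± 0.27). After RCF no gene of these lists was called in any strain or region.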

How the data were processed

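Cy3-labelled RNA was read as spot intensity, background-subtracted by Agilent Feature Extraction 10.7.3.1, per the file headers. The deposited value table holds log2 values with a common 75th percentile of 11.4303, and the submitters' processing notes name limma. Scanner files were assigned to the sample whose deposited column they matched, since 29 of 31 were listed with another. Processed signals were log2-transformed and centred on each array's 75th percentile. Kept were probes that stood well above background in 3 or more arrays of any group and had at most 50% outlier flags (58.6% to 81.9% of probes per array were well above background). The brightest probe stood for a gene, named through RefSeq accessions. Pairs of arrays differing by less than 2 times the spot noise, a limit set after seeing the data, were averaged. limma 3.58.1 (R 4.3.3) fitted 8 group means with a trended prior, and p-values were Benjamini-Hochberg adjusted over 30165 features. The fit was tested on simulated data. The number of arrays limits precision. Members, lists and tests were chosen with earlier results of these data known. Named genes are those called (the 5 smallest p in each direction where over 10 were called), the 3 smallest p where fewer than 3 were called, and tissue-type paralogues; further members were chosen after their values were seen. Alternatives covered normalization, background, filters, probes, weights, the block, array assignment and leaving out samples. The normexp alternative (offset 50) used median spot signals in place of mean signals, which were not used here. Single results of 1 gene are not reported here; it is kept in the counts.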

Additional observations from a re-analysis of the deposited data

Results flagged for a closer look

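Of 116 sets of 4 samples examined (29 genes or means in 4 groups), 17 had 1 sample far from the other 3 by Dixon's criterion. Chance gives about 1 in 20 for a single set. The sets share samples and the means share genes, so they are not independent and that rate cannot judge the count. Most of the 17 lay in 3 samples. In C57 mPFC RCF 4, Cox4i1 was at 6.49, Cox5b at 6.10 and Cox7a1 at 0.40, each below the other 3 samples, as were the means of all 83 genes (4.79), of complex I (4.90) and of complex V (5.74). In C57 NAc RCF 3, Ndufb8 at 5.97 and Atp5l at 6.49 lay above the others, as did the means of all 83 genes (5.01), of complex I (5.13) and of complex V (5.99). In DBA NAc control 4, the sample with C57-type strain markers, Ndufs7 at 5.53, Cox4i1 at 6.75, Cox7b2 at -3.94 and Cox8a at 7.11 lay below the others. The remaining values were Sdhd at 4.38 in C57 mPFC RCF 1, below the others, and Cox4i2 at -1.11 in DBA NAc control 3, above them.

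The difference between regions differed between strains for 19 genes by the interaction test in limma. In complex I these were Ndufa6 (0.40), Ndufa8 (0.52), Ndufa9 (0.38), Ndufa12 (0.41), Ndufb10 (0.46), Ndufb11 (0.43), Ndufs4 (0.44), Ndufs5 (0.51) and Ndufv3 (0.50). In the other complexes they were Sdhc (0.58), Uqcrfs1 (0.57), Cox5b (0.37), Atp5a1 (0.44), Atp5c1 (0.61), Atp5g2 (0.36), Atp5g3 (0.52), Atp5j (0.51) and Atp5l (0.60), and, with the opposite sign, Cox4i2 (-1.08). Without the samples in doubt 3 were called.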

How the results depend on the processing

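The assignment of arrays to samples changed the most. With files as listed, RCF called 20 (C57 mPFC; median -0.21), 25 (C57 NAc), 18 (DBA mPFC; median 0.18) and 6 genes (DBA NAc). Strain then called 0 (control mPFC), 7 (RCF mPFC; median 0.14), 3 (control NAc; median -0.19) and 4 (RCF NAc), and region 0 in C57 RCF (median 0.054), DBA control and DBA RCF samples (median -0.12), with a C57 control median of 0.020. The strain by treatment interactions called 5 (mPFC) and 2 (NAc), and strain by region 0. Of the 86 calls on single genes, 43 reversed under that assignment and none under any other setting.

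Same-numbered samples did not deviate together (the correlation was not above 0.1 for all pairs of any comparison), so the numbers were not taken as pairs. The replicate block, on 31 separate arrays, called 2 genes for RCF in the C57 NAc, 34 for strain in RCF mPFC and 17 in control NAc, 1, 19 and 6 for region in C57 control, C57 RCF and DBA control samples, and 30 for strain by region. Own numbers correlated best for 3 of 4 samples at most (RCF, C57 NAc). Separate arrays without the block gave 2 (RCF, C57 NAc), 17 (strain, control NAc), 2, 16 and 5 (the same 3 region comparisons) and 29.

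Array weights called 27 and 62 genes for strain in control and RCF mPFC, 12 in RCF NAc, 50, 17 and 9 for region in C57 RCF, DBA control and DBA RCF samples, and 30 for strain by region. Normexp gave 10 for strain in control mPFC, 5 for region in C57 RCF samples, 9 for strain by region and 7 for region in C57 over both treatments. Fitting only the groups compared gave 8, 2 and 3 for strain in control mPFC, control NAc and RCF NAc and 1 for region in C57 RCF samples. The authors' deposited values gave 3 for the last and 11 for strain by region. Quantile normalization gave mPFC strain medians of -0.016 (control), -0.065 (RCF) and -0.042 (both), a C57 RCF region median of -0.10, and counts of 18 (strain, control NAc), 12 (RCF NAc), 27 (both), 10 (region, DBA control), 10 (DBA RCF) and 19 (both). Without the samples in doubt, strain called 10 in control mPFC (median -0.047), 3 in control NAc and 23 in mPFC over both treatments, region 7 in C57 over both treatments, and strain by region 3. The causes of these shifts were not tested.

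Leaving out 1 sample at a time gave 9 to 15 (control mPFC, 14 without C57 control 1; median -0.34 to -0.11), 11 to 39 (RCF mPFC; -0.35 to -0.13), 0 to 11 (control NAc; 0.01 to 0.10) and 4 to 9 calls (RCF NAc; 0.07 to 0.21) for strain. For region it gave 0 to 0 (C57 control; -0.23 to -0.09), 0 to 27 (C57 RCF; -0.36 to -0.23), 3 to 6 (DBA control; -0.03 to 0.18) and 2 to 5 (DBA RCF; -0.02 to 0.13). For RCF it gave 0 to 1 in the C57 NAc (-0.17 to -0.06) and 0 to 0 elsewhere, with medians of -0.10 to 0.08 (C57 mPFC), -0.12 to 0.10 (DBA mPFC) and -0.11 to 0.06 (DBA NAc). Strain by region ranged from 6 to 35 and strain by treatment in the NAc from 0 to 1. DBA NAc control 4 and C57 mPFC RCF 4, both with low array weights (0.43 and 0.25), gave the high ends of the control NAc and of the C57 RCF and RCF mPFC counts. Of the 83 genes, 82 were well above background on all arrays, and normexp correction ended 34 of the 86 calls on single genes.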
